A study of Mus with 48 samples.

Results

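The nuclear-encoded subunits of mitochondrial complex I were followed through the cortex, cerebellum, substantia nigra (SN) and striatum of mice in a toxin model of Parkinson's disease. They were all gene names that begin with Nduf followed by a, ab, b, c, s or v and a number, and 38 of the 23339 gene names used met this rule. RNA was sequenced from 12 female C57BL/6J mice, bought at 8 weeks of age, and the 4 regions of each mouse gave 48 libraries, 4 mice in each of the groups saline, MPTP and MPTP + EX. The MPTP and MPTP + EX mice received 10 subcutaneous injections of MPTP at 25 mg/kg together with probenecid, a drug that slows the clearance of the toxin. After the injections, 12 weeks of treadmill running followed in the MPTP + EX group alone, with sessions of 40 min on 5 days per week and a top speed of 15 m/min, and no saline mice ran. Levels are FPKM, in which fragments are divided by transcript length and by library size, so that the levels of different genes can be set beside each other.

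Complex I, NADH:ubiquinone oxidoreductase, is the entry point of the respiratory chain. Its matrix arm takes electrons from NADH on a flavin, passes them along iron-sulphur clusters and hands them to ubiquinone, and its membrane arm pumps protons. The subunits that carry the chemistry of the matrix arm are nuclear-encoded core subunits, the core of the membrane arm comes from mitochondrial DNA, and the remaining nuclear-encoded subunits are accessory ones that hold and stabilise the core. The complex has a direct place in this model, because the product of MPTP, MPP+, enters dopaminergic neurons through the dopamine transporter and inhibits complex I at its ubiquinone end. The transcripts of the mitochondrial subunits were not analysed here.

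All 38 transcripts passed the filter of a mean above 1 FPKM in every comparison. Of these, 36 encode complex I subunits. They are 3 core subunits of the NADH module, 4 core subunits of the quinone module, 10 accessory subunits of the matrix arm, 9 accessory subunits of the proximal membrane arm and 10 of the distal membrane arm. The other two, Ndufa4 and Ndufa4l2, met the rule by name, although Ndufa4 has since been assigned to cytochrome c oxidase, complex IV, and Ndufa4l2 is its hypoxia-inducible relative. Ndufb1 was not analysed here. Copies or pseudogenes of Ndufa11, Ndufa12, Ndufab1, Ndufb4, Ndufs5 and Ndufs6 are annotated in the mouse genome, and the sources used here do not say how reads shared with them were counted, so the levels of these genes are less certain.

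In 47 of the 48 libraries the FPKM summed to 343661 to 402521, 12809 to 13593 genes lay above 1 FPKM and the 38 transcripts held 0.977% to 1.42% of the sum. The striatum library of the MPTP + EX mouse E29 stood apart, with a sum of 619797, 11595 genes above 1 FPKM and 2.34% of its sum in the 38 transcripts. Its median correlation with the other striatum libraries was 0.896, against 0.990 to 0.995 for the other 47 within their regions, so the counts and medians of the striatum are given with and without it. Th, the rate-limiting enzyme of dopamine synthesis, checked the MPTP label in the SN. It was 192, 294, 135 and 214 FPKM in the saline mice, 32.3, 36.9, 31.4 and 40.1 in the MPTP mice and 45.2, 39.6, 28.1 and 19.2 in the MPTP + EX mice, so that no treated mouse reached the lowest saline mouse. All 12 markers of dopaminergic neurons on a fixed list fell with MPTP in the SN, where 0.571% of all genes fell, and their summed level was 813 to 1697 FPKM with saline and 276 to 345 with MPTP. The RNA came from pieces of tissue, in which fewer cells of a type and less RNA per cell cannot be told apart.

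**Figure D1:**
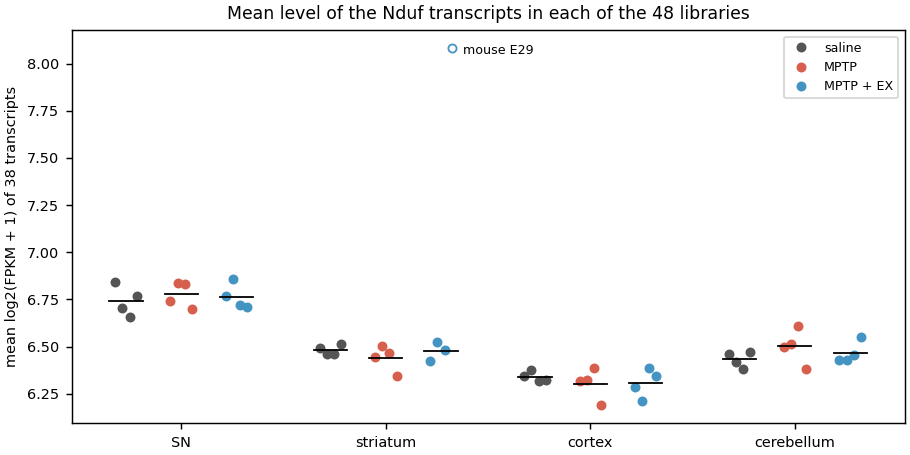
Mean log2(FPKM + 1) of the 38 transcripts (vertical axis) in each of the 48 libraries, by region and treatment, with points for mice and bars for group means without mouse E29. The SN libraries lie above the other regions, the 3 treatments overlap within each region, and the striatum library of mouse E29 (open circle) lies at 8.08.

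In the saline mice, complex I transcripts were abundant and their levels spread widely. The median of the 38 means over the 16 saline libraries was 107.3 FPKM, with quartiles of 77.3 and 135.0. The highest was Ndufa4 at 338.2 FPKM, followed by Ndufa3, a small accessory subunit of the proximal membrane arm, at 248.6, and Ndufa5, an accessory subunit of the matrix arm, at 244.5. The lowest were Ndufa4l2 at 2.96, Ndufs5, an accessory subunit of the membrane arm, at 8.48, and Ndufa11, which lies where membrane arm subunits meet, at 20.4. Transcripts of subunits of the same complex thus ranged from 8.48 to 248.6 FPKM. The levels of Ndufs5 and Ndufa11 at the low end are among those less certain because of annotated copies, and the next lowest subunit was Ndufs4 at 32.5. The within-group coefficient of variation over the 4 mice, as the median of the groups, was 6.56% for the median transcript and highest for Ndufa4l2 at 30.5%, so that the rarest transcript was also the least steady.

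The core subunits did not stand above the accessory ones in transcript level. In the NADH module, Ndufv1, which binds NADH and the flavin, was at 95.7 FPKM over the saline libraries, Ndufv2, which carries an iron-sulphur cluster beside it, at 60.8, and Ndufs1, which carries several clusters, at 45.7. In the quinone module, the class median was 105.7 FPKM, and Ndufs7, which carries the last cluster before ubiquinone, was highest at 166.3 FPKM. The accessory classes had medians of 105.9 FPKM in the matrix arm, 89.5 in the proximal membrane arm and 126.0 in the distal membrane arm.

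**Figure D2:**
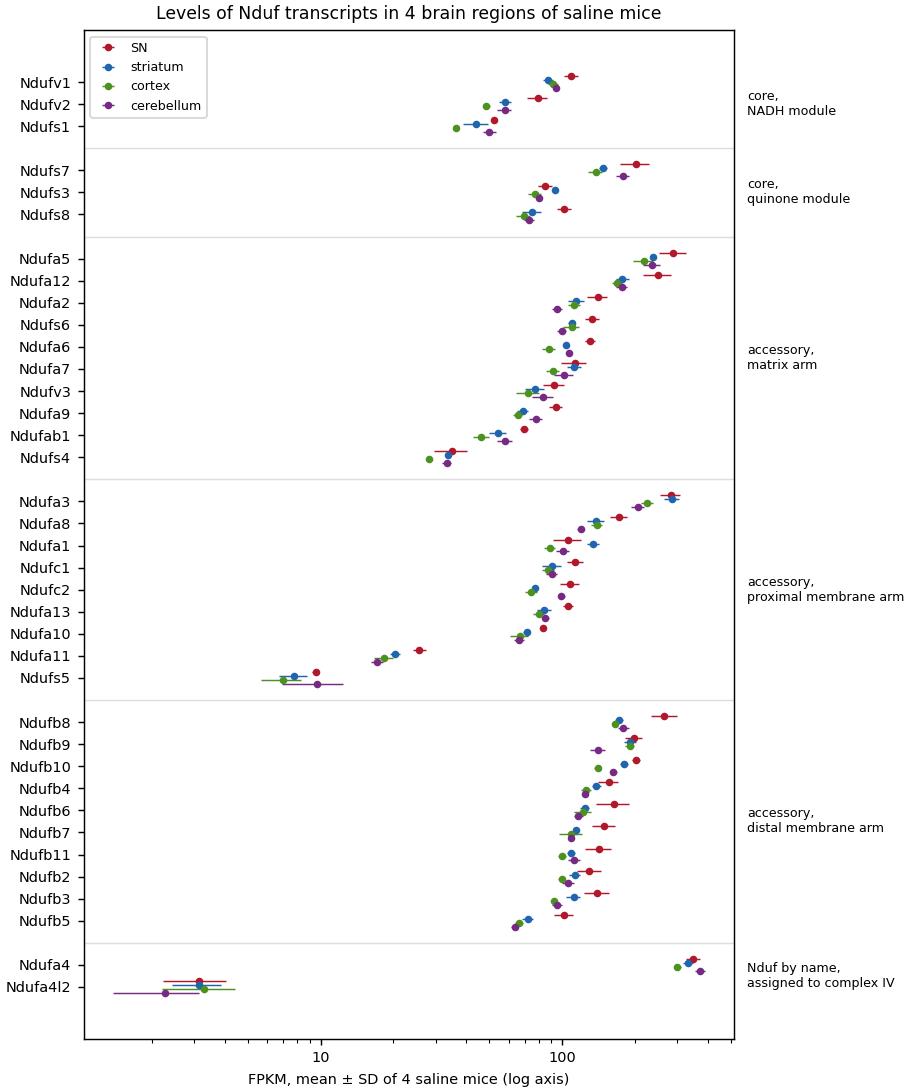
Level of 37 of the 38 transcripts in FPKM (log axis) in the 4 regions of the saline mice, as mean ± SD of 4 mice, ordered by place in the complex. For 32 of the 38 the SN has the highest mean, and the exceptions include Ndufa1, highest in the striatum.

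The first question was how the subunits vary between regions without toxin or exercise. The SN carried the highest mean level of 32 of the 38 transcripts, whereas 34.7% of all genes were highest in the SN. For 19 of the 38 the 4 SN libraries lay above all 12 others, which held for 14% of all genes. The cortex had the lowest mean for 25 transcripts and the cerebellum for 12, but the share of all genes lowest in each region was not counted. The other highest means were those of Ndufa1, Ndufa3 and Ndufs3 in the striatum, of Ndufa4 and Ndufs5 in the cerebellum and of Ndufa4l2 in the cortex, and of these the libraries stood clear of all others only for Ndufa1.

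Between the SN and the cortex, 36 of the 38 transcripts were higher in the SN at an adjusted p under 0.05 (limma) and none was lower, beside 38.8% of all genes higher and 20.7% lower. The median log2 difference of the 38 was 0.41 and that of all genes 0.11, a shift of the whole table that the values of this comparison include. With all libraries scaled to a common median it was 0.31 for the 38. Ndufv2 differed most. Its levels were 87.99, 78.4, 69.99 and 80.7 FPKM in the SN of the 4 saline mice and 48.7, 50.4, 46.5 and 48.1 in their cortex. The lowest SN value lay above the highest cortex value, as for 33.4% of all genes. The log2 difference was 0.69 (limma, standard error 0.066, adjusted p = 2.21e-07). Ndufb8, an accessory subunit of the distal membrane arm, was next, at 307, 259.7, 267 and 227 FPKM in the SN and 163, 169.6, 168 and 165 in the cortex, again without overlap, with a log2 difference of 0.66 (standard error 0.070, adjusted p = 7.35e-07). All 7 core subunits were higher in the SN than in the cortex, by log2 differences from 0.14 for Ndufs3 to 0.69 for Ndufv2. The exceptions among the 38 were Ndufb9 and Ndufa4l2, with log2 differences of 0.051 (standard error 0.066, adjusted p = 0.522) and -0.051 (standard error 0.22, adjusted p = 0.854).

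Between the SN and the striatum, 29 transcripts were higher in the SN and 2 were lower, beside 36.7% and 20.9% of all genes, and the median was 0.31 against 0.091 for all genes. Ndufb8 was highest in difference here too, at 179.6, 169, 164 and 174 FPKM in the striatum and a log2 difference of 0.62 (standard error 0.070, adjusted p = 1.80e-06). Ndufb5, from the same arm, was at 111, 107, 91.7 and 95.5 FPKM in the SN and 74.3, 75.6, 67.8 and 69.996 in the striatum, a log2 difference of 0.49 (standard error 0.060, adjusted p = 3.91e-06). For both genes every SN library exceeded every striatum library, as for 31.7% of all genes, while for 17.7% every SN library lay below. The transcripts that ran the other way were Ndufa1 and Ndufs3. Ndufa1, a small accessory subunit of the proximal membrane arm encoded on the X chromosome, was at 110.1, 110.1, 84.9 and 116 FPKM in the SN and 145, 129, 131 and 132 in the striatum, a log2 difference of -0.36 (standard error 0.082, adjusted p = 0.00150), and the groups did not overlap. Ndufs3, a core subunit of the quinone module, was at 93.6, 82.6, 81.2 and 83.4 FPKM in the SN and 92.5, 92.6, 93.5 and 94.2 in the striatum. Here the striatum was very even and overlapped the highest SN value. The log2 difference of Ndufs3 was -0.13 (standard error 0.051, adjusted p = 0.0373) and it passed the threshold no longer with the mouse as a block, without a variance trend or without any of the mice S2, S3 and S4.

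Between the SN and the cerebellum, 27 transcripts were higher in the SN and none was lower, beside 35.6% of all genes higher and 30.7% lower. The median was 0.31 against 0.044 for all genes, and quantile normalization lowered it to 0.15. All 10 accessory subunits of the distal membrane arm were among those higher, with Ndufb5 at 64.995, 60.6, 64.4 and 64.3 FPKM in the cerebellum, a log2 difference of 0.66 (standard error 0.060, adjusted p = 7.43e-08), and Ndufb8 at 182, 176, 169 and 191, a log2 difference of 0.55 (standard error 0.070, adjusted p = 3.53e-06). Neither overlapped with the SN, where 31% of all genes were higher without overlap. Of the core subunits, Ndufv1, Ndufv2 and Ndufs8 were also among them. The log2 differences of those named that did not pass were 0.061 for Ndufs1, 0.078 for Ndufs3 and 0.17 for Ndufs7, with adjusted p of 0.446, 0.187 and 0.0731.

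The other 3 regions differed less from each other and not in 1 direction. Between the cortex and the striatum no transcript was higher in the cortex and 11 were lower, beside 15.9% of all genes higher and 19.5% lower, and 7 were lower without mouse S4. Ndufa1, at 91.7, 82.2, 91.9 and 90.01 FPKM in the cortex, had the largest difference, -0.59 (standard error 0.082, adjusted p = 3.72e-05). Ndufb10, an accessory subunit of the distal membrane arm, was at 145, 143, 141 and 134 FPKM in the cortex and 185, 173, 178 and 187 in the striatum, a log2 difference of -0.36 (standard error 0.046, adjusted p = 1.69e-05). Both were below the striatum in all libraries, as were 20.6% of all genes.

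Between the cerebellum and the cortex, 12 transcripts were higher in the cerebellum and 3 were lower, beside 39.7% and 27% of all genes, and the median of the 38, 0.092, turned to -0.031 on scaling to a common median. Ndufs1 led those higher in the cerebellum, at 53.5, 46.1, 50.7 and 49.6 FPKM there and 35.3, 35.9, 37.1 and 37.4 in the cortex, a log2 difference of 0.44 (standard error 0.068, adjusted p = 2.82e-05). Ndufc2, an accessory subunit of the proximal membrane arm, was at 100.2, 98.3, 95.03 and 103 FPKM in the cerebellum and 76.7, 77.8, 68.5 and 73.97 in the cortex, a log2 difference of 0.41 (standard error 0.060, adjusted p = 1.60e-05). Neither gene overlapped between these regions, beside 36.6% of all genes higher in the cerebellum without overlap. Ndufb9, a distal membrane arm subunit, ran the other way, at 143, 148, 126 and 143 FPKM in the cerebellum and 189, 186, 203 and 185 in the cortex, a log2 difference of -0.44 (standard error 0.066, adjusted p = 1.91e-05), and Ndufa2, of the matrix arm, was also lower, by -0.23 (standard error 0.070, adjusted p = 0.00951).

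Between the cerebellum and the striatum, 6 transcripts were higher and 11 were lower in the cerebellum, beside 36.6% and 28.3% of all genes, with a median of -0.030. Those higher included Ndufc2 by 0.36 (standard error 0.060, adjusted p = 7.20e-05). Those lower included Ndufa3, at 220.2, 204, 191 and 207 FPKM in the cerebellum and 286, 288, 257 and 305 in the striatum, by -0.46 (standard error 0.072, adjusted p = 3.29e-05), and Ndufb9 by -0.45 (standard error 0.066, adjusted p = 1.76e-05). None of these 3 genes overlapped between the 2 regions, beside 33.8% of all genes higher and 25.4% lower without overlap.

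The higher level in the SN was shared by other mitochondrial transcripts. Of the subunits of complexes II to IV, 19 of 23 were higher in the SN than in the cortex, as were 12 of 15 of ATP synthase, all 12 of the tricarboxylic acid cycle list and 10 of 15 assembly factors of complex I. Their median log2 differences were 0.38, 0.48, 0.47 and 0.27. Markers of cell types also differed between the SN and the cortex, where 38.8% of all genes were higher in the SN and 20.7% lower. All 8 oligodendrocyte markers were higher in the SN than in the cortex, with a summed level of 5098 to 6479 FPKM against 1676 to 2118, and all 8 microglia markers, with 352 to 469 against 243 to 286, as were 5 of 7 astrocyte markers, of which the other 2 were lower, with 725 to 957 against 556 to 722, while of 10 pan-neuronal markers 4 were higher and 4 lower. The part of these cells in the levels of the 38 transcripts was not tested.

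The dopaminergic markers of the SN fell in the MPTP mice, and the next question was whether transcripts of the complex that its product inhibits moved with them. In the SN none of the 38 passed the adjusted threshold in MPTP against saline mice (limma), where 0.0668% of all genes were higher and 0.571% lower. At an unadjusted p under 0.05, 2 were higher and none was lower, beside 5.69% and 5.61% of all genes. The median log2 difference of the 38 was 0.042 and of all genes 0.022. For the 36 complex I subunits the 95% intervals of the single differences reached from -0.45 to 0.46, with a median half-width of 0.17, so that changes within these bounds remain possible for single genes.

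The 3 transcripts with the lowest p in this comparison were Ndufa4, Ndufs1 and Ndufa11, all with higher means in the MPTP mice. Ndufa4 was at 353, 342, 323 and 376 FPKM in the saline mice and 362, 436, 424 and 370.1 in the MPTP mice, and the groups overlapped. Its log2 difference was 0.19 (standard error 0.075, adjusted p = 0.364). Ndufs1 was at 52.5, 52.4, 50.2 and 53.4 FPKM with saline and 56.2, 55.4, 55.5 and 61.3 with MPTP, which did not overlap, as for 3.61% of all genes. The highest value, 61.3, was that of mouse M6, and the log2 difference of Ndufs1 was 0.13 (standard error 0.055, adjusted p = 0.401). Ndufa11 was at 27.8, 24.2, 24.8 and 25.8 FPKM with saline and 26.4, 27.6, 28.6 and 28.9 with MPTP, which overlapped, with a log2 difference of 0.12 (standard error 0.063, adjusted p = 0.512). The widest difference of all belonged to the rare Ndufa4l2, -0.32 (standard error 0.20, adjusted p = 0.568), at 2.71, 2.08, 4.08 and 3.67 FPKM with saline and 3.40, 1.49, 1.92 and 2.46 with MPTP. At such levels the groups overlapped broadly.

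In the striatum, where the terminals of the dopaminergic neurons lie, no transcript passed the threshold in MPTP against saline mice, adjusted or unadjusted, with or without mouse E29 (limma). The library of this mouse enters the common estimate of the spread. With it, 0.468% and 0.589% of all genes were higher and lower at an unadjusted p under 0.05, so that a count of 0 among 38 transcripts says little, and without it 5.34% and 4.79% were. The median log2 difference was -0.029, against 0.0069 for all genes, and the 95% intervals of the 36 subunits reached from -1.26 to 1.06 with mouse E29 and from -0.50 to 0.23 without it. The genes with the lowest p were Ndufab1, Ndufs5 and Ndufa12. Ndufab1, the mitochondrial acyl carrier protein, was at 59.3, 49.6, 51.3 and 56.5 FPKM with saline and 47.2, 55.8, 44.9 and 49.6 with MPTP. Ndufs5 was at 6.33, 8.71, 8.12 and 7.75 and 6.95, 7.27, 4.74 and 7.64, and Ndufa12, an accessory subunit of the matrix arm, at 187, 171, 165 and 187 and 167, 173, 176 and 121. All 3 overlapped between the groups, and the low Ndufa12 value of 121.2 was that of mouse M6. Their log2 differences were -0.13, -0.20 and -0.17, each with an adjusted p of 1 with mouse E29 and of 0.623, 0.624 and 0.576 without it. Ndufa6, an accessory subunit of the matrix arm, was the only one whose groups did not overlap, at 102, 105, 106 and 104 FPKM with saline and 101, 93.6, 97.6 and 98.2 with MPTP, beside 2.07% of all genes lower without overlap.

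In the cortex no transcript passed the adjusted threshold in MPTP against saline mice, as no gene did (limma), and 1 was higher and 3 were lower at an unadjusted p under 0.05, beside 9.53% and 10.5% of all genes. The transcript with the lowest p was again Ndufs1, which was at 35.3, 35.9, 37.1 and 37.4 FPKM with saline and 39.4, 43.2, 40.002 and 42.3 with MPTP. All 4 MPTP mice lay above all 4 saline mice, as for 7.89% of all genes, and the log2 difference was 0.17 (standard error 0.056, adjusted p = 0.123). Ndufs7 ran the other way, at 138, 148, 125 and 139 FPKM with saline and 132, 119.9, 125 and 112 with MPTP, which overlapped, with a log2 difference of -0.17 (standard error 0.064, adjusted p = 0.174). Ndufa4l2 was at 2.95, 4.89, 3.01 and 2.35 FPKM with saline and 1.92, 2.65, 1.74 and 2.48 with MPTP, a log2 difference of -0.41 (standard error 0.16, adjusted p = 0.191) and again an overlap. Only Ndufb2, an accessory subunit of the distal membrane arm, was lower without overlap, beside 6.57% of all genes. It was at 96.2, 103.4, 97.2 and 101.6 FPKM with saline and 94.3, 94.3, 92.0 and 75.3 with MPTP, a log2 difference of -0.17.

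In the cerebellum no transcript passed the adjusted threshold either, as no gene did (limma). Here, however, 11 of the 38 were higher in MPTP mice at an unadjusted p under 0.05 and none was lower, beside 6.13% and 5.75% of all genes. The difference lay above 0 for 33 of the 38, beside 55.5% of all genes, and the median was 0.079, against 0.015 for all genes. The count moved with single mice, from 2 without mouse M23 to 14 without mouse M6, was 3 with scaling to a common median and 4 without a variance trend, and was 0 in 1 fit of all 48 libraries and 3 in that of 47, while the median stayed between 0.044 and 0.11 in these settings. Of the 38, only Ndufb5 had groups that did not overlap, beside 3.25% of all genes. The transcripts share their libraries and are not independent.

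Ndufv2 had the lowest p in the cerebellum, at 62.4, 52.9, 58.2 and 57.4 FPKM with saline and 60.99, 69.02, 67.6 and 70.6 with MPTP. Mouse M16 fell within the saline range while the other 3 lay above it, and the log2 difference was 0.21 (standard error 0.063, adjusted p = 0.264). Ndufa3 was at 220.2, 204, 191 and 207 FPKM with saline and 229, 242, 269.5 and 214 with MPTP, a log2 difference of 0.21 (standard error 0.071, adjusted p = 0.295). Ndufc2 was at 100.2, 98.3, 95.03 and 103 FPKM and 107, 108, 119 and 100.01, a log2 difference of 0.13 (standard error 0.051, adjusted p = 0.371). For both, mouse M6 was the MPTP mouse within the saline range. Ndufb5, which stood apart, was at 64.995, 60.6, 64.4 and 64.3 FPKM with saline and 65.8, 69.7, 81.04 and 67.3 with MPTP, a log2 difference of 0.15 (standard error 0.067, adjusted p = 0.398). The others at an unadjusted p under 0.05 were Ndufs1 and Ndufs3 of the core and the accessory Ndufa2, Ndufa11, Ndufb4, Ndufs4 and Ndufv3, with log2 differences of 0.090 to 0.16. At the same threshold 9 of 23 subunits of complexes II to IV and 6 of 15 of ATP synthase were higher and none was lower. Of the cell type lists, 2 of 8 oligodendrocyte markers were higher at this threshold, with a summed level of 1741 to 2056 FPKM with saline and 1883 to 2028 with MPTP, and none of 7 granule and Purkinje cell markers, and their part in the result was not tested.

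**Figure D3:**
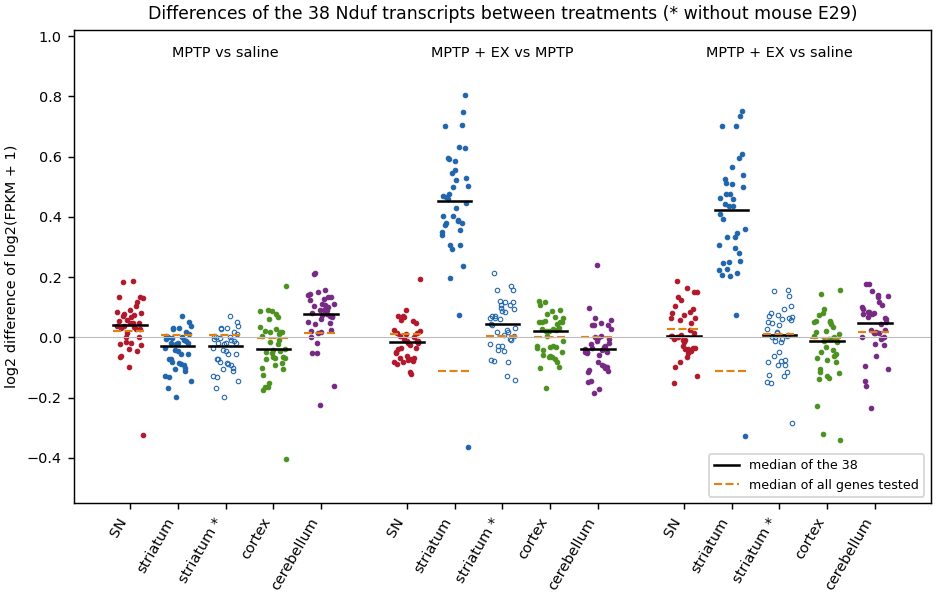
Log2 difference of each of the 38 transcripts on the log2(FPKM + 1) scale (vertical axis) in each comparison of treatments and region, with black bars for their median and dashed bars for the median of all genes tested. None passed the adjusted threshold, and in the striatum the median for MPTP + EX against MPTP moved from 0.45 to 0.043 without mouse E29.

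Whether the response to MPTP differed between regions was tested directly, in 1 fit of the 32 saline and MPTP libraries. In none of the 6 pairs of regions did a transcript pass the adjusted threshold (limma), beside 0.717% and 1.37% of all genes higher and lower between SN and cortex, 0.187% and 0.538% between SN and striatum, 0.0299% and 0.485% between SN and cerebellum, and none in the other pairs. At an unadjusted p under 0.05 no transcript had a lower response in the first region of a pair. A higher response in the SN was found for 1 transcript against the cortex, beside 9.33% of all genes, for 2 against the striatum, beside 5.56%, and for 0 against the cerebellum, beside 4.18%. A higher response in the cerebellum was found for 3 against the cortex, beside 4.01%, and for 4 against the striatum, beside 3.38%. None was higher in the cortex than in the striatum, beside 6.07%. The lowest p among them was that of Ndufa4, whose response in the SN exceeded that in the striatum by 0.28 (standard error 0.089, adjusted p = 0.184).

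The effect of exercise was read from MPTP + EX against MPTP mice. In the SN no transcript passed at an adjusted or an unadjusted p under 0.05 (limma). Of all genes none passed the adjusted threshold, and 3.4% and 3.89% were higher and lower at the unadjusted one. The median was -0.015 and the 95% intervals of the 36 subunits reached from -0.37 to 0.44. The lowest p belonged to Ndufv3, an accessory subunit that sits on the NADH module. It was at 99.1, 102, 97.6 and 89.2 FPKM in the MPTP mice and 88.9, 89.6, 91.8 and 85.3 in the MPTP + EX mice, with a log2 difference of -0.12 (standard error 0.070, adjusted p = 0.746). Ndufc2 was at 109, 113, 116 and 105 and 110.1, 107, 94.4 and 98.4 FPKM, and Ndufs3 at 94.3, 96.6, 88.2 and 86.99 and 83.4, 86.6, 90.7 and 85.2. All 3 had lower means after exercise and overlapped, with an adjusted p of 0.796 for Ndufc2 and 0.833 for Ndufs3.

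In the striatum the same comparison depended on mouse E29. With it, the median log2 difference of the 38 was 0.45 and that of all genes -0.11, and 1 transcript, Ndufab1, was higher at an unadjusted p under 0.05, beside 1.58% of all genes. Without it, the median was 0.043 and 4 transcripts were higher at that threshold, beside 4.91% of all genes. None passed adjustment in either fit (limma), beside 0.0151% of all genes lower without mouse E29 and none with it. Ndufb9 was at 194, 187, 191 and 183 FPKM in the MPTP mice and 202, 208 and 221 in the MPTP + EX mice other than E29. These did not overlap, and the log2 difference without mouse E29 was 0.16 (standard error 0.056, adjusted p = 0.418), and 0.63 (standard error 0.35, adjusted p = 0.550) with it. Ndufv2 was at 53.5, 60.7, 59.2 and 57.9 and 62.7, 66.8 and 64.2 FPKM, again without overlap, with a difference of 0.16 (standard error 0.059, adjusted p = 0.425) without mouse E29 and 0.48 (standard error 0.25, adjusted p = 0.550) with it. Non-overlapping groups of this direction held for 4.08% of all genes. Ndufab1 was at 47.2, 55.8, 44.9 and 49.6 and 51.3, 54.9 and 66.6 FPKM, with overlap, and a difference of 0.21 (standard error 0.098, adjusted p = 0.489) without mouse E29 and 0.38 (standard error 0.17, adjusted p = 0.550) with it. Ndufs6, a zinc-binding accessory subunit of the matrix arm, was at 106, 118, 110.3 and 101 and 115, 129 and 124 FPKM, with a difference of 0.17 (standard error 0.062, adjusted p = 0.418) without mouse E29 and 0.75 (standard error 0.43, adjusted p = 0.550) with it.

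In the cortex no transcript passed at an adjusted or an unadjusted p under 0.05 in MPTP + EX against MPTP mice (limma). Of all genes none passed adjustment either, and 3.23% and 2.5% were higher and lower at an unadjusted p under 0.05. The lowest p were those of Ndufa9, an accessory subunit at the junction of the arms, Ndufs4, an accessory subunit of the matrix arm whose loss gives a Leigh-like disease in mice, and Ndufs8, a core subunit with iron-sulphur clusters. Ndufa9 was at 67.7, 66.1, 69.05 and 62.5 FPKM in MPTP mice and 64.5, 60.5, 62.998 and 59.8 in MPTP + EX mice, a log2 difference of -0.098 (standard error 0.049, adjusted p = 0.879). Ndufs4 was at 23.3, 27.4, 29.7 and 24.4 and 27.9, 27.2, 30.1 and 28.7 FPKM, a difference of 0.12 (standard error 0.067, adjusted p = 0.891), and Ndufs8 at 65.4, 62.2, 67.97 and 63.7 and 70.6, 66.4, 66.02 and 72.5, a difference of 0.086 (standard error 0.055, adjusted p = 0.898). All 3 overlapped.

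In the cerebellum none passed adjustment, beside 0.0154% of all genes lower, and 2 transcripts were lower in MPTP + EX than in MPTP mice at an unadjusted p under 0.05, beside 2.49% of all genes (limma). Ndufs3 was at 86.7, 84.1, 90.8 and 81.7 FPKM in MPTP mice and 79.6, 81.8, 81.8 and 78.01 in MPTP + EX mice, a log2 difference of -0.094 (standard error 0.041, adjusted p = 0.857). Ndufb10 was at 169, 179, 208 and 152 and 153, 149.6, 154 and 168 FPKM, a difference of -0.17 (standard error 0.076, adjusted p = 0.857). Both overlapped, as did Ndufa3, at 203, 205, 219.9 and 233 FPKM after exercise and a difference of -0.15 (standard error 0.071, adjusted p = 0.865).

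The MPTP + EX mice were last set against the saline mice, which also served as the controls for MPTP, so that these comparisons are not independent of those above. No transcript passed adjustment in any region (limma), beside 0.26% and 0.764% of all genes higher and lower in the SN. In the other regions, with mouse E29 kept in, no gene of the whole table passed either. At an unadjusted p under 0.05, 2 were higher in the SN, and none was lower, beside 8.97% and 6.84% of all genes. They were Ndufs1, at 62.2, 54.8, 55.6 and 59.1 FPKM in the MPTP + EX mice and a log2 difference of 0.15 (standard error 0.055, adjusted p = 0.218), and Ndufa4, at 415, 377, 385 and 384 FPKM and a difference of 0.16 (standard error 0.075, adjusted p = 0.315). Neither overlapped with saline, which held for 4.48% of all genes. Ndufb9, next in order, was at 214, 199, 176 and 201 FPKM with saline and 208, 248, 221 and 202 with MPTP + EX, which overlapped, with a difference of 0.15 (standard error 0.074, adjusted p = 0.351).

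In the striatum without mouse E29, 3 transcripts were higher and 1 was lower in MPTP + EX than in saline mice at an unadjusted p under 0.05, beside 5.46% and 4.7% of all genes. With it none was, beside 1.05% and 1.71%, and the median of the 38 was 0.42 with it and 0.0068 without. Ndufv2 was at 60.6, 55.1, 55.1 and 60.8 FPKM with saline, below all the MPTP + EX mice, a difference of 0.16 (standard error 0.059, adjusted p = 0.415) without mouse E29 and 0.48 (standard error 0.25, adjusted p = 0.635) with it. Ndufs6 was at 105, 110.3, 110.3 and 113 FPKM with saline, also without overlap, a difference of 0.16 (standard error 0.062, adjusted p = 0.430) without mouse E29 and 0.74 (standard error 0.43, adjusted p = 0.635) with it. Ndufb9, at 195, 204, 187 and 179 FPKM with saline, overlapped, with 0.14 (standard error 0.056, adjusted p = 0.441) without mouse E29 and 0.61 (standard error 0.35, adjusted p = 0.635) with it. The lower one was Ndufs7, at 154, 141, 151 and 145 FPKM with saline and 125, 140.4 and 134 in the MPTP + EX mice other than E29, where the groups did not overlap, with -0.15 (standard error 0.063, adjusted p = 0.446). With mouse E29 its direction turned, to 0.39 (standard error 0.41, adjusted p = 0.638). Groups without mouse E29 did not overlap for 2 higher and 3 lower transcripts, beside 5.11% and 4% of all genes, and the others that lay below saline were Ndufs3, at 86.2, 89.9 and 86.04 FPKM, and Ndufa12, at 165, 163 and 159.

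In the cortex 1 transcript was higher and 5 were lower in MPTP + EX than in saline mice at an unadjusted p under 0.05, beside 8.34% and 8.76% of all genes. Ndufs1 was the higher one, at 43.2, 39.5, 43.7 and 37.2 FPKM with MPTP + EX, where mouse E29 lay within the saline range, and the difference was 0.16 (standard error 0.056, adjusted p = 0.188). Among those lower, Ndufa12 was at 169.5, 172, 158 and 177 FPKM with saline and 144, 146, 136 and 151 with MPTP + EX, a difference of -0.23 (standard error 0.094, adjusted p = 0.242). Ndufa5 was at 211, 204, 207 and 248 FPKM with saline and 171, 175, 164 and 185 with MPTP + EX, a difference of -0.32 (standard error 0.13, adjusted p = 0.246). Neither overlapped, and for Ndufa5 the saline mouse S4 was well above the other 3. The rest were Ndufb10, Ndufb11 and Ndufs7, with log2 differences of -0.14, -0.12 and -0.14. Ndufb11 was at 105.2, 98.8, 96.6 and 99.1 FPKM with saline and 95.7, 86.8, 91.5 and 94.3 with MPTP + EX, also without overlap. In all, 3 of the 38 were lower without overlap, or 7.89%, beside 4.05% of all genes.

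In the cerebellum 6 transcripts were higher and 1 was lower at an unadjusted p under 0.05, beside 9.78% and 7.1% of all genes. Ndufab1 was at 57.4, 56.3, 54.2 and 63.8 FPKM with saline and 62.6, 63.3, 70.2 and 65.97 with MPTP + EX, a difference of 0.18 (standard error 0.059, adjusted p = 0.190). Ndufv2 was at 67.1, 59.3, 68.1 and 66.98 FPKM with MPTP + EX, with mouse E27 the lowest, a difference of 0.18 (standard error 0.063, adjusted p = 0.208). Ndufs1 was at 55.5, 52.6, 53.5 and 58.8 FPKM, a difference of 0.14 (standard error 0.051, adjusted p = 0.217). All 3 overlapped with saline. Ndufc2 did not, at 108, 105, 109 and 113 FPKM, a difference of 0.13 (standard error 0.051, adjusted p = 0.236), which held for 5.88% of all genes. The rest at this threshold were Ndufa4 and Ndufb5, higher by 0.14 and 0.15, and Ndufs7, with -0.16. Ndufa12 was not at this threshold but lay below saline in all libraries, at 176, 187, 166 and 175 FPKM with saline and 154, 159.7, 159 and 163 with MPTP + EX, as did 3.81% of all genes, with a difference of -0.15 (standard error 0.081, adjusted p = 0.375).

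**Figure D4:**
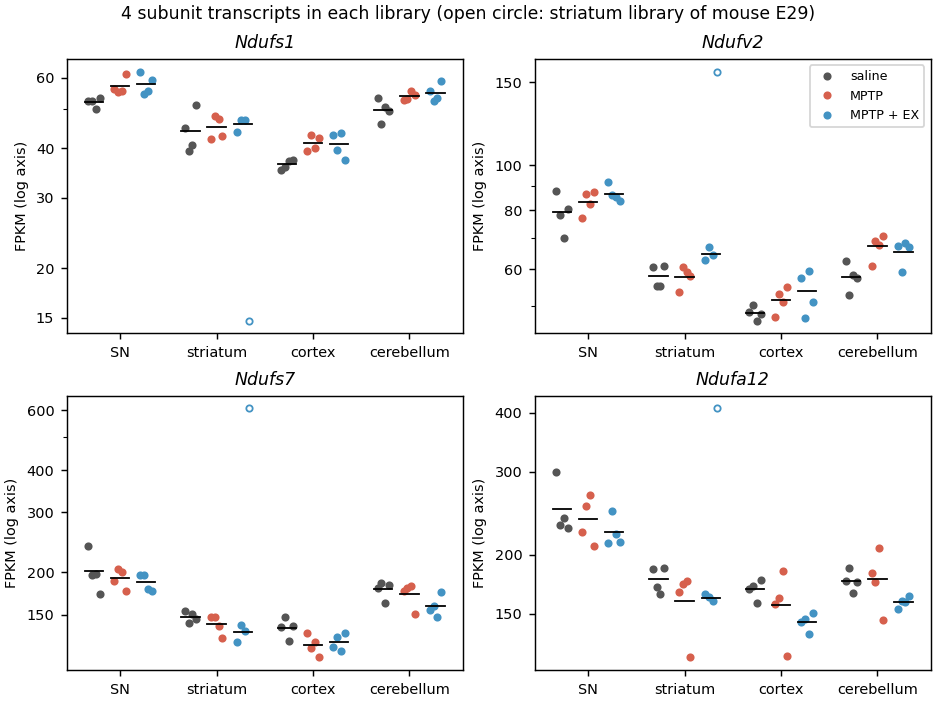
FPKM (log axis) of Ndufs1, Ndufv2, Ndufs7 and Ndufa12 in every library by region and treatment, with points for mice and bars for group means without the striatum library of mouse E29 (open circle). In the cortex all 4 MPTP values of Ndufs1 lie above the saline values, and in the striatum library of mouse E29 Ndufs1 is at 14.7 FPKM while the other 3 genes are above their groups.

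In the SN, cortex and cerebellum, the treated means of core subunits Ndufs1 and Ndufv2 lay above saline and those of Ndufs7 below it. This was not particular to them. The treated means of Ndufa4, Ndufab1 and Ndufb4, among others, also lay above saline in these regions, and those of Ndufa4l2 below it. For Ndufv2 the log2 differences from saline were 0.077 with MPTP and 0.13 with MPTP + EX in the SN. They were 0.089 and 0.14 in the cortex and 0.21 and 0.18 in the cerebellum. How often the 38 or all genes kept a direction over these regions was not counted. The mean of Ndufs1 was 52.1 ± 1.39 FPKM (SD, n = 4) with saline, 57.1 ± 2.83 with MPTP and 57.9 ± 3.41 with MPTP + EX in the SN. It was 36.5 ± 0.994, 41.2 ± 1.79 and 40.9 ± 3.06 in the cortex and 49.97 ± 3.08, 53.95 ± 1.25 and 55.1 ± 2.74 in the cerebellum. That of Ndufs7 was 137 ± 9.25, 122 ± 8.41 and 125 ± 7.28 in the cortex. In the striatum the directions of Ndufs1 and Ndufs7 turned on mouse E29. Ndufs1 was 44.1 ± 5.34 FPKM with saline and 45.1 ± 2.93 with MPTP, and with MPTP + EX 38.2 ± 15.7 with that mouse and 46.05 ± 1.83 (n = 3) without it. Ndufs7 was 148 ± 5.69 and 141 ± 9.20, and 252 ± 238 with it and 133 ± 8.01 (n = 3) without. None of these differences from saline passed adjustment, and the comparisons share their saline libraries. The core subunits Ndufv1 and Ndufs8 were not at an unadjusted p under 0.05 in any comparison of treatments.

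The other lists of mitochondrial genes likewise gave no call in any comparison of treatments. Of all genes, up to 0.764% passed in a direction in the SN against saline. In the cerebellum 0.0154% did for MPTP + EX against MPTP, and in the striatum at most 0.0227% without mouse E29. In the other comparisons, and in the striatum with mouse E29, no gene passed, so no list could give a call there. None of the 23 subunits of complexes II to IV, the 15 of ATP synthase, the 12 of the tricarboxylic acid cycle, the 15 assembly factors tested or the 11 regulators of mitochondrial biogenesis passed the adjusted threshold in any of the 12 comparisons (limma), with or without mouse E29.

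In the striatum library of mouse E29, nearly all complex I transcripts were far above the other MPTP + EX mice. Of the 38, 37 lay above all 3 others, as did 32.2% of all 13183 genes above 1 FPKM in those mice, and the median ratio to their mean was 3.15 for the 38 and 0.655 for all genes. The ratios were widest for Ndufa4l2 at 7.81 and Ndufa11 at 7.49, whose levels were 19.1 and 140.2 FPKM, against 2.80, 3.12 and 1.43 and 17.9, 20.7 and 17.5 in mice E26, E27 and E28. At the other end of those raised, Ndufab1 was at 91.2 FPKM, a ratio of 1.58. Ndufs1 alone was below the others, at 14.7 FPKM against 43.9, 47.1 and 47.1, a ratio of 0.320, although Ndufv1 and Ndufv2 of the same module had ratios of 3.43 and 2.45. With no other library like it, this difference has no replicate.

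The same library also had high transcripts of other respiratory complexes but not of the tricarboxylic acid cycle. The median ratio was 3.02 for the 23 subunits of complexes II to IV and 3.33 for the 15 of ATP synthase, while it was 0.866 for the tricarboxylic acid cycle, 1.07 for the assembly factors of complex I and 0.432 for the regulators of mitochondrial biogenesis. Of the 15 assembly factors, 8 lay above all the other MPTP + EX mice and 5 below. Pan-neuronal markers had a median ratio of 1.05, medium spiny neuron markers 1.17, oligodendrocyte markers 1.16, astrocyte markers 0.374 and choroid plexus markers 6.11. The medians near 1 hide markers that went both ways. Ratios ran from 0.207 to 1.94 for the pan-neuronal, 0.0578 to 2.08 for the medium spiny neuron and 0.452 to 2.56 for the oligodendrocyte markers. Of 10 pan-neuronal markers 5 lay above all the other MPTP + EX mice and 4 below. Choroid plexus markers varied widely between striatum libraries. Their mean log2(FPKM + 1) was 5.31 in this library, 5.18 in saline mouse S4 and 1.69 in MPTP + EX mouse E27. Malat1, a long nuclear RNA, was at 17.5 FPKM, against 148.2 to 362.6 in the other 47 libraries. The part of the library's makeup in the levels of the 38 transcripts was not tested. Ndufv2 in the SN, cortex and cerebellum libraries of mouse E29 was at 83.8, 51.1 and 66.98 FPKM, against 158 in its striatum. Its SN library had the lowest mean log2(FPKM + 1) of the 12 SN libraries for astrocyte markers, 6.37 against 7.02 to 7.08 in the other MPTP + EX mice, and for microglia markers, 4.79 against 5.52 to 5.83. Without this SN library the median difference of the 38 for MPTP + EX against MPTP in the SN was -0.0022 in place of -0.015, and no transcript passed adjustment.

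**Figure D5:**
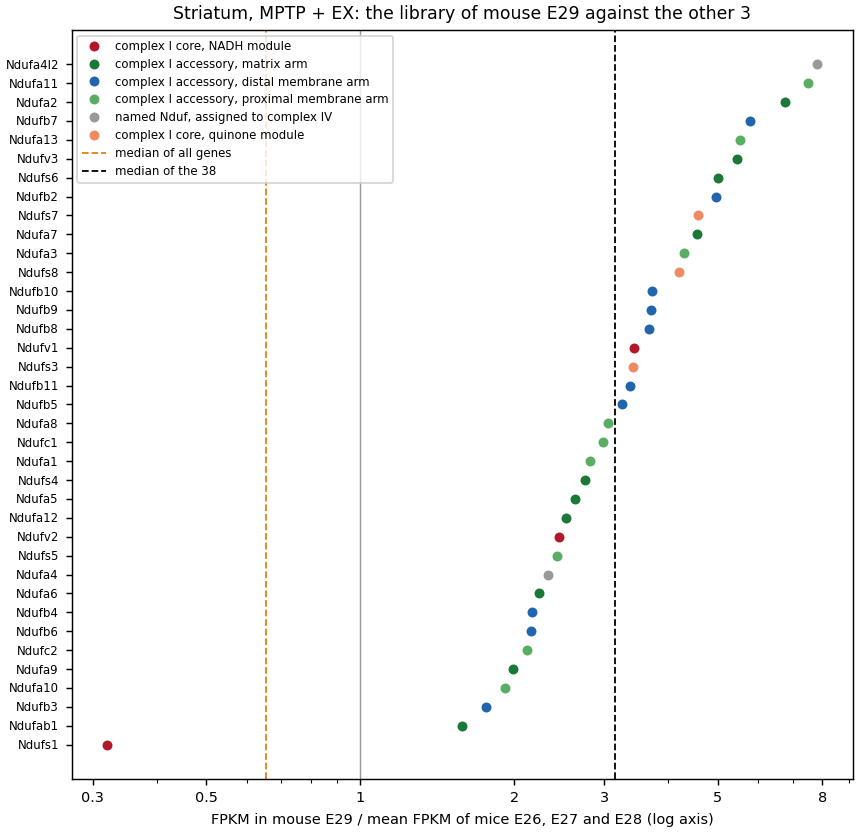
Ratio of the FPKM in the striatum library of mouse E29 to the mean of MPTP + EX mice E26, E27 and E28 (log axis) for 37 of the 38 transcripts, coloured by place in the complex, with dashed lines at the medians of the 38 (3.15) and of all genes (0.655). Those drawn lie to the right of 1 except Ndufs1, which lies at 0.320.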

How the data were processed

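RNA-seq of 4 brain regions from 12 mice was analysed as 1 table of FPKM that the authors deposited for 23366 gene names, without 27 names that had become dates in spreadsheet software. The submitters' processing notes name HISAT2 (version 2.1), HTSeq (version 0.11) and the genome build mm9, and the study's methods list Cufflinks, RSEM, Tophat2 and DESeq. The methods give FPKM to Cufflinks and RSEM, which differs from the notes, and which account applies to the deposited table was not resolved. Read counts are unknown, so no count test or counting error is given. The steps between low FPKM values gave the relative depth of the libraries, whose range was 1.29-fold for the striatum, 1.34-fold for the cortex, 1.51-fold for the SN and 1.57-fold for the cerebellum, and the precision comes from the spread between 4 mice.

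Groups came from the sample titles, and each column was taken to its mouse from its name. FPKM were taken as log2(FPKM + 1), which understates changes of low genes, and genes with a mean above 1 FPKM over the libraries of a fit were tested in R (version 4.3.3) by limma (version 3.58.1) with an intensity trend, two-sided, and Benjamini-Hochberg adjustment over all genes of the fit. The 3 treatment groups of each region shared 1 fit, the regions were compared over the 16 saline libraries, and the difference of the MPTP response over 32 libraries. A difference is called at an adjusted p under 0.05. The script was tested on simulated data. Figures used matplotlib (version 3.10.9) in Python (version 3.11.15).

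Values in every library are given for the 3 transcripts with the lowest p in each region and comparison of treatments, the 3 highest and 3 lowest in the saline mice, up to 2 in each direction with the largest called difference between regions, and Ndufa4, Ndufa4l2 and the core subunits as a class. Ndufb5, Ndufc2 and Ndufa12 in the cerebellum, Ndufb2 and Ndufb11 in the cortex and Ndufa6 in the striatum were added after their values were seen. So were Ndufs3, Ndufs6, Ndufs7, Ndufa12, Ndufab1 and Ndufb9 in the striatum without mouse E29. The values of 1 transcript are not reported here, although it enters the counts and medians. The members, the classes and the gene lists were chosen with earlier results of these data known, and the lists were written by hand.

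The alternatives tried were quantile normalization or scaling to a common median, a filter by the highest group mean or none, a pseudocount of 0.1, no trend, a fit of the 2 groups alone or of all 48 libraries, the mouse as a block, the list without Ndufa4 and Ndufa4l2, and leaving out each library or mouse in turn. A fit over the 47 libraries other than the striatum library of mouse E29 was chosen after the data were seen. The gene names were matched to RefSeq (all 38 matched), whose coordinates are of another build and are not given.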

Additional observations from a re-analysis of the deposited data

Results flagged for a closer look

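In groups of 4 mice, a value was singled out where its gap to the nearest other, divided by the range of the group, exceeded Dixon's critical value at 95%. Chance alone singles out about 1 in 20 groups, and 113 were tested among the values named. The mean log2(FPKM + 1) of the 38 transcripts in the striatum library of mouse E29 was 8.08, and their summed FPKM was 14526, both far from the other MPTP + EX mice. In the same library Ndufv2 was at 158.2 FPKM against 62.7 to 66.8, Ndufb9 at 779.1 against 201.9 to 221.4, and Ndufs6 at 611.7 against 114.6 to 128.6. Over all 38 transcripts, 34 of 38 were singled out in that group, each through mouse E29, and 29 of 418 in the other 11 groups.

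Other single mice stood apart in single transcripts. Ndufs1 in the SN of MPTP mouse M6 was at 61.3 FPKM against 55.4 to 56.2 in the other 3. Ndufa5 in the cortex of saline mouse S4 was at 247.5 against 204.0 to 210.8, and this mouse belongs to the group that lay above the MPTP + EX mice in that region. Ndufv2 in the cerebellum of MPTP + EX mouse E27 was at 59.3 against 67.0 to 68.1, and Ndufb5 in the cerebellum of saline mouse S2 at 60.6 against 64.3 to 65.0.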

How the results depend on the processing

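The count of 11 at an unadjusted p under 0.05 in the cerebellum, MPTP against saline, lay between 0 (1 fit of all 48 libraries) and 14 (without mouse M6). The absence of a call among the 38 transcripts held in all 264 alternative fits of the 12 treatment comparisons. It also held in all 96 of the 6 differences of the MPTP response. In most treatment comparisons the main fit called no gene of the whole table, so the absence says little there. Medians that moved by more than the spread between replicates were those of the striatum, of 0.45 for MPTP + EX against MPTP and 0.42 against saline. They became 0.61 and 0.58 on scaling to a common median, 0.22 and 0.19 with quantile normalization, and 0.043 and 0.0068 in the fit of 47 libraries, and ranged from 0.043 to 0.61 and from 0.0068 to 0.60 on leaving out 1 library, lowest without mouse E29.

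Between regions of the saline mice, scaling to a common median gave medians of 0.31 for SN against cortex, -0.068 for cortex against striatum, -0.031 for cerebellum against cortex and -0.10 for cerebellum against striatum. Quantile normalization gave 0.32, -0.096, 0.19 and 0.023 for these pairs and 0.15 for SN against cerebellum, and 23 calls between cerebellum and cortex. The fit over all 48 libraries, into which mouse E29 brings its spread, gave 16, 11, 12, 1, 4 and 3 calls for SN against cortex, striatum and cerebellum, cortex against striatum, cerebellum against cortex and cerebellum against striatum, where the fit of 16 libraries gave 36, 31, 27, 11, 15 and 17 and that of 47 libraries 35, 29, 28, 11, 16 and 16. For cortex against striatum, leaving out 1 mouse gave 7 to 11 calls and medians of -0.12 to -0.097, and 7 calls without mouse S4.

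Same-mouse libraries of different regions had correlations of deviations from -0.20 to 0.28 (median 0.085, 24 pairs), against a median of -0.044 in 72 pairs of different mice, and a consensus correlation of 0.077. With the mouse as a replicate block the calls were 36, 30, 26, 11, 17 and 18 in the order of pairs above, and the only named call lost was Ndufs3 between SN and striatum. No paired analysis was possible between treatments because the treatments were given to different mice. Of the named differences, 1027 alternative values kept their side of the threshold and 14, of 7 differences, lost it, and none reversed. The values kept include those of the treatment differences, which were not called in the main fit and had no call to lose. All losses fell among the called differences between regions. Ndufs3 between SN and striatum lost its call in 6 of its 14 alternatives, and Ndufa2 between cerebellum and cortex in 3 of 14. Ndufa2 between cerebellum and cortex lost its call with quantile normalization and without mouse S1.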
